A study of Mus musculus with 16 samples.

Results

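Open chromatin in mouse embryonic stem cells (ESCs) that lack their own Wdr5 and p53 was compared between cells given back WDR5 with the S91K and Y191F substitutions and cells given back wild-type WDR5. The comparison uses 4 of the 16 ATAC-seq libraries of the series, 2 of S91K-Y191F cells and 2 of wild-type rescue (WDR5WT) cells. Overlap by 1 bp merged the peaks of chromosomes 1 to 19, X and Y into 39393 regions. A region was WDR5WT-only when both WDR5WT lists and neither S91K-Y191F list had a peak in it, and S91K-Y191F-only in the reverse case. There were 13557 WDR5WT-only and 966 S91K-Y191F-only regions.

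All cells carried the Rx:GFP knock-in and were kept in 2i+LIF, a medium that holds ESCs in the naive state. The S91K-Y191F and WDR5WT groups are both Wdr5 and p53 double knockouts with a stably transfected plasmid, and the series title gives the rescue protein as human WDR5. The other ESC groups, used here only to look up the regions, are the double knockout with the backbone plasmid, the parental Rx:GFP line, and C9 and H9, 2 clones without p53, each with 2 libraries. The labels do not say how many double knockout clones were used, how much rescue protein the cells made, or whether replicates were separate cultures, so p-values measure only the spread between these libraries.

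WDR5 is a WD40-repeat scaffold shared by the COMPASS and MLL complexes, which methylate lysine 4 of histone H3 (H3K4). Its central cavity, around which S91 and Y191 lie, holds an arginine of the MLL proteins or of histone H3. WDR5 is known to sit near ribosomal protein genes, to bind MYC, and to sustain ESC self-renewal. ATAC-seq marks DNA that a transposase can reach, and in ESCs the strongest marks are promoters, most of them rich in CpG.

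The promoters of 7 genes show the kinds of locus that separated the groups. Each line holds the 250 bases before a transcription start, 5′ to 3′ on the gene's strand, in lower case with CpG pairs in capitals (RefSeq, GRCm38.p6, the coordinates of mm10). The first 4 had a peak in both WDR5WT lists and in neither S91K-Y191F list once every list was held to its strongest 5174 peaks. They belong to the neuronal adhesion genes Mdga2 and Negr1, the neuregulin receptor gene Erbb4 and the naive pluripotency factor gene Klf4.
Mdga2, chr12:67222550-67222799, minus strand: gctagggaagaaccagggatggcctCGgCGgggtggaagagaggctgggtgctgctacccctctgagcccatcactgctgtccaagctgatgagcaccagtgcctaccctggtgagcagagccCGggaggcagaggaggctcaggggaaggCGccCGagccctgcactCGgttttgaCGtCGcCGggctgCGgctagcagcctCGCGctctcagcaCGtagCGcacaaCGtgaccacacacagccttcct
Negr1, chr3:156561544-156561793, plus strand: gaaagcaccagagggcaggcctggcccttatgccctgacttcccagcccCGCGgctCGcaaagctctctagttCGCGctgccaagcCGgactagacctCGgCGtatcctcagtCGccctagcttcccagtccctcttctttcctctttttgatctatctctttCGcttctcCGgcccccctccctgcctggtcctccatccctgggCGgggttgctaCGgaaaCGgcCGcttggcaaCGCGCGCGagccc
Erbb4, chr1:69108060-69108309, minus strand: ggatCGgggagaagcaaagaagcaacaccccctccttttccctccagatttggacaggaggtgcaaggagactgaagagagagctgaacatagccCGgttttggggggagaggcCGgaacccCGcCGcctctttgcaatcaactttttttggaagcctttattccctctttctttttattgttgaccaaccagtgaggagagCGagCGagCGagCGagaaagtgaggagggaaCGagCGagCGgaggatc
Klf4, chr4:55532476-55532725, minus strand: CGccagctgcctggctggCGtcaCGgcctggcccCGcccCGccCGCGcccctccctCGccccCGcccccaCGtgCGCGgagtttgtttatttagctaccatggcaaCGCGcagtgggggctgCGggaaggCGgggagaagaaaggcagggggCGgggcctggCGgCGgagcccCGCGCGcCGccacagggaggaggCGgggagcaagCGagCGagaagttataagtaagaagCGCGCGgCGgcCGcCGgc
The next 3 had a peak in both S91K-Y191F lists and in neither WDR5WT list at that length, although all 4 full lists had one. They belong to the small ribosomal subunit gene Rps19 (the first of its 3 listed starts), the large subunit gene Rpl13a and the replication-dependent histone gene H4c9.
Rps19, chr7:24884342-24884591, plus strand: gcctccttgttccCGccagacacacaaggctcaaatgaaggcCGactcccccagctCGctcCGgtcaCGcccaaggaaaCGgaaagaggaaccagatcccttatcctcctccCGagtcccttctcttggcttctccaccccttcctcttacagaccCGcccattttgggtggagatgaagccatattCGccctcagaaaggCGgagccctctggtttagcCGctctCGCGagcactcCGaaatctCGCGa
Rpl13a, chr7:45128746-45128995, minus strand: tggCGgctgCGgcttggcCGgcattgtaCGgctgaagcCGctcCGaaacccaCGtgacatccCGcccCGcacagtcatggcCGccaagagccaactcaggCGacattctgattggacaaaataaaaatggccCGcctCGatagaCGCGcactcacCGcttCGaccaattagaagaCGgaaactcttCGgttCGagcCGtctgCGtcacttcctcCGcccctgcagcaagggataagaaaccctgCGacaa
H4c9, chr13:22041363-22041612, minus strand: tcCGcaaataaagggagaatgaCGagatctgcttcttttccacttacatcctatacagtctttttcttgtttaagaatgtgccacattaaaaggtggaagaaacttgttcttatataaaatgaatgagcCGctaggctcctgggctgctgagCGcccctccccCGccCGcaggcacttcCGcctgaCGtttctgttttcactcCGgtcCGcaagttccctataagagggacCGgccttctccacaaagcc
The Mdga2, Negr1, Erbb4 and Klf4 promoters hold 15, 19, 12 and 32 CpG pairs, and those of Rps19, Rpl13a and H4c9 hold 16, 24 and 11.

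The S91K-Y191F lists were the shorter ones and differed more between replicates than the WDR5WT lists. They held 5174 and 16257 peaks in replicates 1 and 2, and the WDR5WT lists held 29779 and 32709. On the log10 scale this was 3.96 ± 0.352 for S91K-Y191F and 4.49 ± 0.0288 for WDR5WT (SD, n = 2 each), a difference of -0.53. The groups did not overlap. The two-sided exact permutation test gave p = 0.33, the smallest that 2 libraries against 2 allow, and 0.33 after adjustment over 4 such tests. The lists hold no read counts, so the depth is unknown, and list length and genotype cannot be told apart. For this reason each result is also given at equal list length, with the strongest 5174 peaks of each list by the authors' signal.

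The lists also differed in kind. In the S91K-Y191F lists 613 and 575 peaks (11.8% and 3.54%) lay in 30 windows of 100 kb, each with at least 10 peaks in backbone replicate 1. In the WDR5WT lists 99 and 112 peaks did (0.332% and 0.342%), with p = 0.33 by the exact permutation test. The widest peak spanned 29214 and 18810 bp in S91K-Y191F and 15914 and 7737 bp in WDR5WT. On both measures the S91K-Y191F lists were like those of the parental and backbone cells (504 to 617 peaks in the windows) and the WDR5WT lists like those of the p53 knockout clones (96 to 102). Genotype and the way the lists were made cannot be told apart here.

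Over the full lists, 26511 regions were in both lists of at least 1 group. Of these, 51.1% were WDR5WT-only and 3.64% were S91K-Y191F-only, while 3555 were in all 4 lists. A further 8334 regions were in both WDR5WT lists and S91K-Y191F replicate 2 and were missing from S91K-Y191F replicate 1 alone. The counts therefore follow the S91K-Y191F lists: without S91K-Y191F replicate 2 there were 21917 WDR5WT-only regions, and without replicate 1 there were 3099 S91K-Y191F-only and 11894 shared ones. The WDR5WT-only regions were narrow (median 701 bp) and mostly distal, with 25.8% within 1000 bp of a protein-coding gene's end, against 64.9% of the shared regions. Either end of a gene counts here, since the gene table gives no strand. The S91K-Y191F-only regions were near a gene end in 10.9% of cases, lay in the clustered windows in 38.1% and on chromosome 8 in 25.8%. Over all 26511 regions these shares were 37.2%, 1.71% and 9.42%. With the clustered windows left out, 598 S91K-Y191F-only regions were counted.

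**Figure D1:**
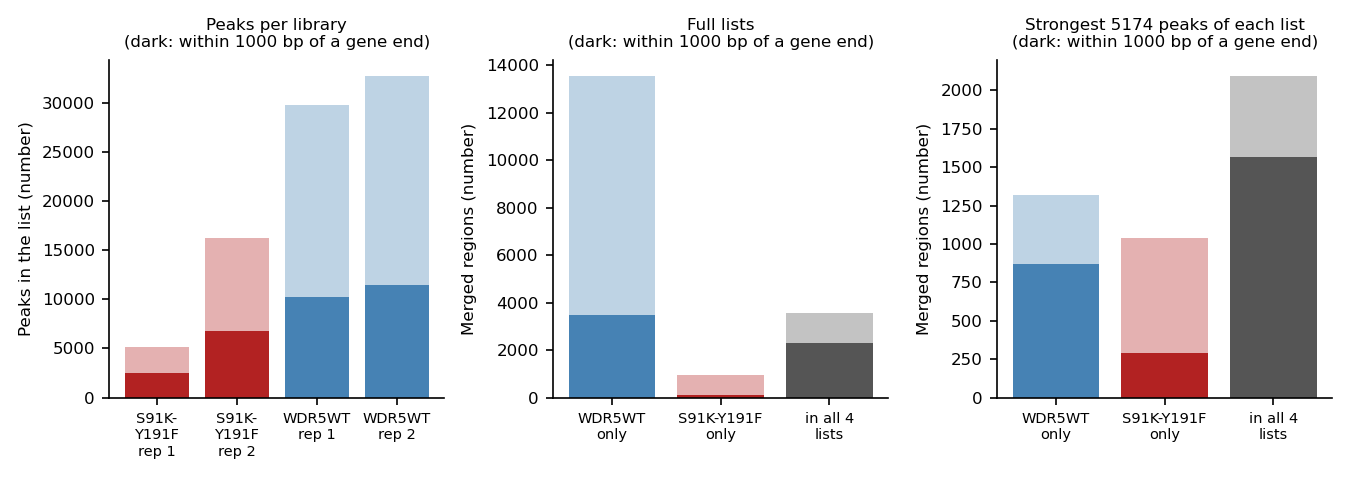
Peaks per library (left) and merged regions by class for the full lists (middle) and for the strongest 5174 peaks of each list (right), as numbers; the dark part of each bar is within 1000 bp of a gene end. WDR5WT-only regions number 13557 in the full lists and 1318 at equal list length, where most are near gene ends.

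At equal list length the classes were of similar size and different place. Of 5562 regions in both lists of at least 1 group, 1318 were WDR5WT-only (23.7%), 1040 were S91K-Y191F-only (18.7%) and 2093 were in all 4 lists. Of the WDR5WT-only regions 65.9% were near a gene end, against 74.7% of those in all 4 lists, and none lay in a clustered window. Of the S91K-Y191F-only regions 28.1% were near a gene end, or 33.5% outside the clustered windows. Both counts depend on each S91K-Y191F library. Without replicate 2 they were 1989 and 2476, and without replicate 1, when the lists could be 16257 long, they were 4323 and 5133. Without WDR5WT replicate 1 there were 1995 WDR5WT-only regions.

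The share of all peaks near a gene end turned with list length. In the full lists it was 47.8% and 41.5% in S91K-Y191F and 34.5% and 35.1% in WDR5WT. At equal list length it was 47.8% and 54.8% in S91K-Y191F and 64.4% and 71.9% in WDR5WT. Neither pair of groups overlapped, and the exact permutation test gave p = 0.33 for both. The strongest 5174 WDR5WT peaks were thus more often at genes, with a difference of -16.85 percentage points (S91K-Y191F minus WDR5WT). For S91K-Y191F replicate 1 these are the whole list, weak peaks included. Clustered windows held 613 and 269 of the S91K-Y191F peaks at this length, and 21 and 17 of the WDR5WT peaks. Near a gene end were 47.1% and 44.3% in the parental lists and 56.55% to 64.86% in the p53 knockout lists.

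Recovery of WDR5WT peaks dropped from strong to weak ones. In decile 1, the strongest, of WDR5WT replicate 1, outside the clustered windows, 60.3% of peaks were found in S91K-Y191F replicate 1 and 93.9% in replicate 2. In decile 5 the shares were 3.78% and 36.7%, and in decile 10 0.809% and 10.4%. WDR5WT replicate 2 found 98.0% of decile 5 and 54.0% of decile 10. In reverse, WDR5WT replicate 1 found 63.7% of decile 1 of S91K-Y191F replicate 1, 80.8% of decile 5 and 77.6% of decile 10. For S91K-Y191F replicate 2 these shares were 90.2%, 82.6% and 65.6%. The strongest peaks were thus missed more often than the weakest in S91K-Y191F replicate 1 and less often in replicate 2.

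**Figure D2:**
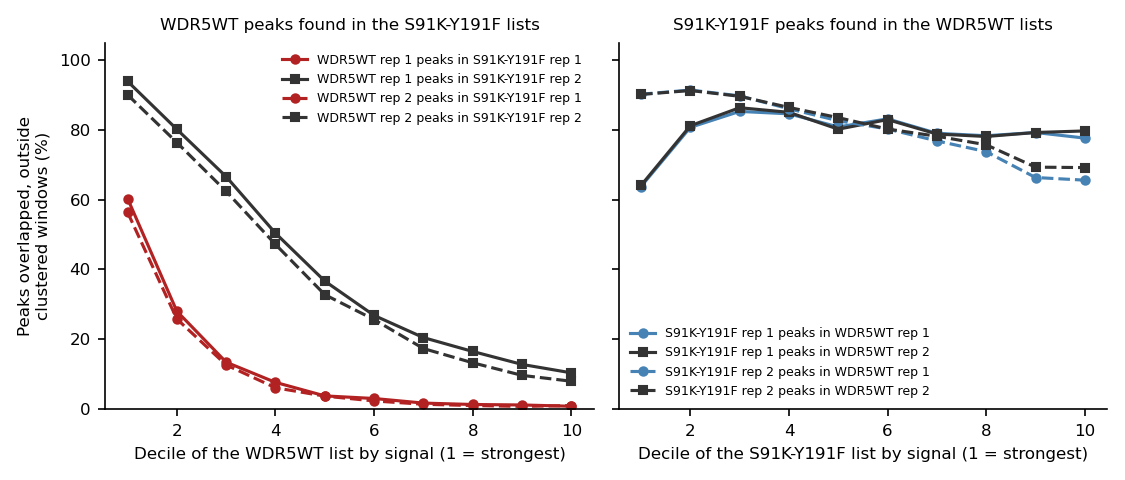
Share of peaks (%) of each decile of a list, ranked by signal from strongest (1) to weakest (10), that overlap a peak of a library of the other group, outside clustered windows; lines are pairs of libraries. The WDR5WT curves fall steadily, from 93.9% to 10.4% for replicate 1 in S91K-Y191F replicate 2, and the reverse curves stay at 63.7% or more.

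A further comparison took regions that ranked among the strongest 5174 peaks in both lists of one group and had no peak at all in either full list of the other. Its counts still depend on how long the full lists are. Of 4268 regions high in both WDR5WT lists, 354 (8.29%) had no peak in either S91K-Y191F list. Of 3421 regions high in both S91K-Y191F lists, 483 (14.1%) had none in either WDR5WT list, although those are longer. The 354 regions had a median width of 1546 bp, 66.4% were near a gene end and none lay in a clustered window. They were close to all 4268, with a median of 1389 bp, 70.5% near a gene end and 0.328% in the windows. The 483 were near a gene end in 13.5% of cases and in clustered windows in 37.9%, against 58.7% and 6.78% of the 3421. Without those windows 314 were counted. Without S91K-Y191F replicate 2 the counts were 1999 and 1421, and without WDR5WT replicate 1 or 2 the first was 704 or 567.

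These regions were looked up in the other ESC lists, which the rule did not use. Of the 354 regions, 350 had a peak in all 4 p53 knockout lists and none had one in a backbone list. Of all 4268 regions high in both WDR5WT lists, the p53 knockout lists held 99.8% or more, so their share of the 354 is near that of the whole set, and the backbone lists held 5.81% and 23.3%. The longer parental list, replicate 1, had a peak in 309 of them, and in 251 when held to its strongest 16257 peaks, the length of S91K-Y191F replicate 2. Parental replicate 2, a list of 5330 peaks, had 14. The 483 regions had peaks in both parental lists in 439, in a backbone list in 386, and in no p53 knockout list in 465. Of all 3421 regions high in both S91K-Y191F lists, the p53 knockout lists held 85.0% to 85.4% and the backbone lists 20.7% and 45.3%. The parental lists held 99.06% and 76.85% of the 3421, against 96.27% and 94.41% of the 483. Over the full lists, 6769 of the 13557 WDR5WT-only regions were in all 4 p53 knockout lists, 12 were in a backbone list and 1189 were in no other ESC list. Of the 966 S91K-Y191F-only regions, 754 were in a backbone list, 687 in both parental lists and 13 in no other ESC list.

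**Figure D3:**
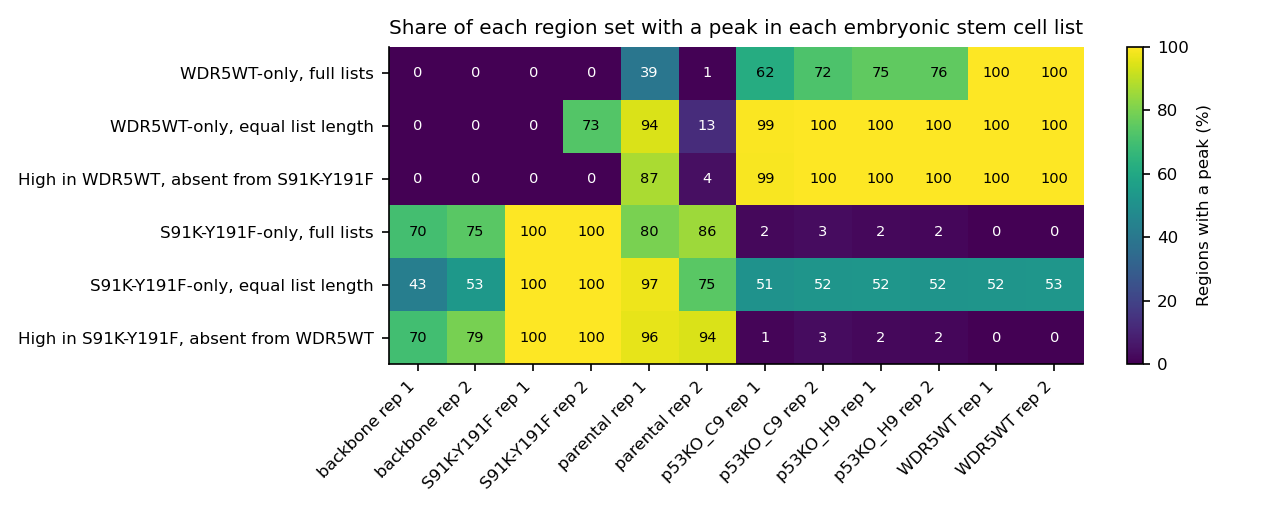
Share (%) of 6 region sets (rows) with a peak in each of the 12 ESC lists (columns), as colour and number. The 354 regions high in WDR5WT and absent from S91K-Y191F were found in 99.2% to 100% by the p53 knockout lists and in 87.3% by parental replicate 1; the 483 of the reverse set were found in at most 3.31% by any p53 knockout list.

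The 10 strongest WDR5WT-only regions at equal list length, outside clustered windows, were nearest to Csf2ra, Mdga2, Negr1, Adcy8, Fzd1, Tent5a, Pcdh17, Cdh11, Fat3 and Cadps. Mdga2, on chr12:67220544-67223052, encodes an adhesion molecule of synapses. Its peak ranked 48 and 76 in the WDR5WT lists and 49 to 106 in the p53 knockout lists. It had no peak in S91K-Y191F replicate 1 and ranked 6155 in replicate 2. Negr1, on chr3:156560388-156563066, encodes a neuronal growth regulator and ranked 85 and 58 in WDR5WT, had no peak in S91K-Y191F replicate 1 and ranked 6217 in replicate 2. Fzd1, a Wnt receptor gene on chr5:4756004-4758625, ranked 149 and 179 in WDR5WT and 5242 in S91K-Y191F replicate 2. All 10 regions were present in S91K-Y191F replicate 2, at ranks from 5242 to 9820, and S91K-Y191F replicate 1 had a peak in none of them. Ranks in lists of unequal length do not measure a change and are given only to place each peak within its list.

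**Figure D4:**
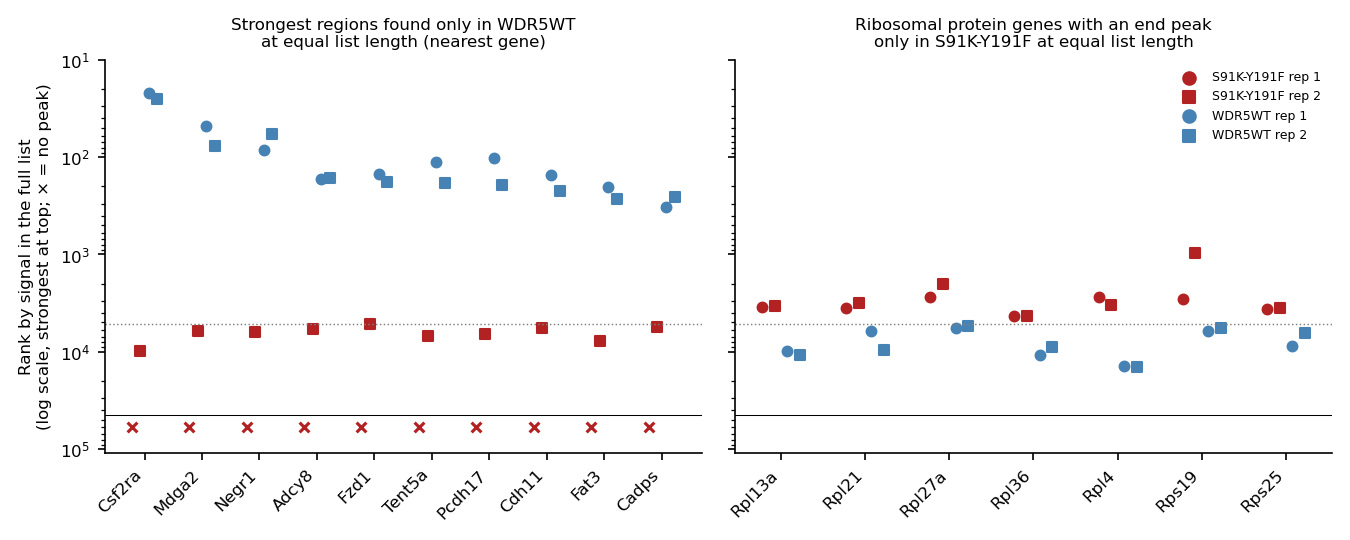
Rank by signal in the full list (log scale, strongest at top) of the 10 strongest WDR5WT-only regions at equal list length (left) and of the end peaks of 7 ribosomal protein genes (right); points are libraries, crosses mark lists without a peak and the dotted line is rank 5174. On the left all WDR5WT points are above the line and all S91K-Y191F points below it or absent, and on the right the order is the reverse.

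Among the regions with no peak in either S91K-Y191F list, Erbb4 led. Its peak, chr1:69105221-69108868, ranked 265 and 439 in WDR5WT and 1890 to 2555 in the p53 knockout lists. It ranked 13163 in parental replicate 1. The next were at Tmtc1, Trhde, Ppp1r14c, Fjx1, Slco3a1, Bmp2, Kcnh5, Cpne8 and Jph1. Bmp2, a ligand of the BMP pathway on chr2:133551896-133553525, ranked 1121 and 682 in WDR5WT and 6139 in parental replicate 1. All 10 regions had a peak in every p53 knockout list and in parental replicate 1, and in no backbone list, nor in parental replicate 2.

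The 3 strongest S91K-Y191F-only regions at equal list length, outside clustered windows, were chr9:3009161-3038380, chr14:19415665-19419746 and chr9:3005519-3008895. They were more than 100 kb from any protein-coding gene's end and had a peak in all 12 ESC lists, both full WDR5WT lists included. The next 4 had no peak in a full WDR5WT list. One, chr14:124801502-124802308, also more than 100 kb from a gene end, ranked 19 and 21 in S91K-Y191F and 16, 18, 17 and 12 in the backbone and parental lists. No WDR5WT or p53 knockout list had a peak there. Further down the order, after these 4, chrX:169995654-169998513 lay near Mid1, a ubiquitin ligase gene at the boundary of the pseudoautosomal region. It ranked 48 and 31 in S91K-Y191F and was in both parental and both backbone lists and in no WDR5WT or p53 knockout list. Of the first 10 such regions absent from both full WDR5WT lists, all 10 were in every parental and backbone list and none in any p53 knockout list. The genes nearest to the most S91K-Y191F-only regions were Gm15319 with 55, Gm21119 with 36, 4930467E23Rik with 27, Gm52481 with 23 and 9530057J20Rik with 22. Of these regions only those of Gm21119 (34 of 36) and 4930467E23Rik (22 of 27) were not all in clustered windows. In multi-copy loci of this kind, reads may not be placed uniquely, so the regions are uncertain.

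At the level of genes, 2868 and 7395 genes had an end peak in S91K-Y191F and 10824 and 12025 in WDR5WT. Of 10654 genes with one in both lists of at least 1 group, 3474 (32.6%) had it in WDR5WT only, 80 (0.751%) in S91K-Y191F only and 2743 in all 4 lists. Of those 80, 59 were predicted genes and 7 were canonical histone genes. Without S91K-Y191F replicate 2 the WDR5WT-only count was 7798, and without replicate 1 the S91K-Y191F-only count was 176. At equal list length, 3953 genes had an end peak in both lists of at least 1 group, and of them 926 (23.4%) were WDR5WT-only, 341 (8.63%) were S91K-Y191F-only and 1847 were in all 4 lists. These genes differed in length. The median was 52.6 kb for the WDR5WT-only genes, 15.7 kb for the S91K-Y191F-only genes and 28.8 kb for the shared ones, against 17.2 kb for all 21887 protein-coding genes. Of 3432 genes with an end peak high in both WDR5WT lists, 282 (8.22%) had none in either full S91K-Y191F list, and their median length was 69.9 kb. Genes over 100 kb made up 34.7%, 4.11% and 16.2% of the WDR5WT-only, S91K-Y191F-only and shared classes at equal list length.

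Ribosomal protein genes, which WDR5 is known to bind, had end peaks more often in S91K-Y191F than in WDR5WT once the lists were of equal length. Of the 79 genes, 21 and 27 (26.6% and 34.2%) had an end peak among the strongest 5174 in S91K-Y191F replicates 1 and 2. In WDR5WT 11 and 10 did (13.9% and 12.7%). The groups did not overlap. Over all genes the order was the reverse, with 13.1% and 15.5% in S91K-Y191F and 17.4% and 19.4% in WDR5WT. Of 20 such genes in both lists of at least 1 group, 9 were S91K-Y191F-only (45%, against 8.63% of all genes), none were WDR5WT-only and 9 were in all 4 lists. Among the 9 were Rpl13a, Rpl21, Rpl27a, Rpl36, Rpl4, Rps19 and Rps25, and each of these 7 had an end peak in all 4 full lists. Rps19, whose product is part of the small subunit, ranked 2858 and 969 in S91K-Y191F and 6098 and 5667 in WDR5WT. Rpl4, of the large subunit, ranked 2715 and 3309 in S91K-Y191F and 13910 and 14380 in WDR5WT. In the parental lists 19 and 15 of the genes had an end peak at this length, and in the p53 knockout lists 12 to 16, between the compared groups. Of 41 translation factor genes 11 and 15 had one in S91K-Y191F and 10 and 11 in WDR5WT. Ranked by −log10 p these were 11 and 16 against 8 and 9, so this order was not particular to ribosomal protein genes. For 20 ubiquitously expressed genes the groups overlapped, with 6 and 9 against 6 and 7. In these lists 2 of 10 and 1 of 6 genes were S91K-Y191F-only by signal, against 8.63% of all genes.

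Ranked by −log10 p in place of signal, 8 ribosomal protein genes were S91K-Y191F-only and 1 was WDR5WT-only; ranked by signal per base, 7 and 0 were. Counting only peaks over the listed promoter windows, which the table gives for 58 of these genes, left 4. In the full lists the order was the reverse. There 21 and 53 of the genes had an end peak in S91K-Y191F and 65 and 70 in WDR5WT, 12 of 61 were WDR5WT-only (19.7%, against 32.6% of all genes) and none were S91K-Y191F-only. The first WDR5WT-only members in alphabetical order were Rpl11, Rpl12 and Rpl13, whose peaks ranked 21389 and 19869, 28489 and 27062, and 8202 and 11313 in the WDR5WT lists. The direction of the raw counts thus flips with list length. In the full lists all genes went the same way, with an end peak in 13.1% and 33.79% in S91K-Y191F and 49.45% and 54.94% in WDR5WT. Set against all genes, the WDR5WT-only share was lower in the full lists and the S91K-Y191F-only share was higher at equal list length.

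Canonical histone genes, which are expressed in S phase and sit in clusters, were a further group, added after the values were seen. Of 58 genes, 48 on chromosome 13 and 10 on chromosome 3, an end peak was among the strongest 5174 for 19 and 39 in S91K-Y191F and for 0 and 2 in WDR5WT. Parental lists had 28 and 16, and each p53 knockout list had 2. Held to that length, 17 of 19 genes were S91K-Y191F-only and none were WDR5WT-only, against 8.63% and 23.4% of all genes. Over all genes 13.1% and 15.5% had an end peak at that length in S91K-Y191F and 17.4% and 19.4% in WDR5WT. In the full lists the counts were 19 and 50 in S91K-Y191F and 39 and 43 in WDR5WT, so the groups overlapped there. Without S91K-Y191F replicate 1, at the greater list length, 26 were S91K-Y191F-only. These genes have near-identical copies, so a read may be placed at more than 1 of them and the genes are not independent.

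**Figure D5:**
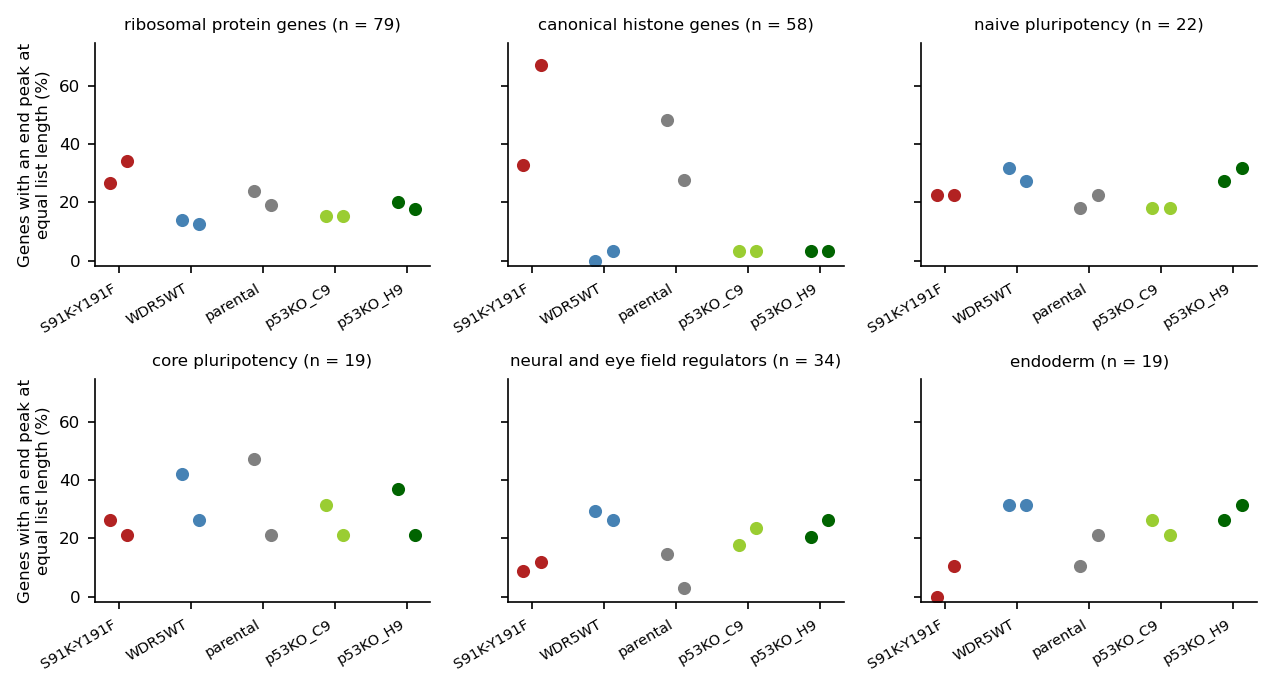
Share (%) of the genes of 6 lists with a peak within 1000 bp of a gene end among the strongest 5174 peaks of each library; points are the 2 libraries of each ESC group. Ranked by signal, ribosomal protein and histone genes are higher in both S91K-Y191F libraries than in both WDR5WT libraries. Neural and endoderm genes are lower, as are all genes (13.1% and 15.5% against 17.4% and 19.4%). Ranked by signal per base, the neural groups overlap.

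Regulators of neural and endoderm fates had fewer end peaks in S91K-Y191F at equal list length by signal. So did all protein-coding genes, with 13.1% and 15.5% in S91K-Y191F and 17.4% and 19.4% in WDR5WT. Of 34 neural and eye field regulators, 3 and 4 had an end peak there in S91K-Y191F and 10 and 9 in WDR5WT. Ranked by −log10 p the counts were 3 and 5 against 7 and 6, and ranked by signal per base 3 and 5 against 3 and 4, where the groups overlapped. Of 8 in both lists of a group, 4 were WDR5WT-only (50%, against 23.4% of all genes) and none S91K-Y191F-only, and 3 were by −log10 p and 0 by signal per base. Among the 4 were the Hedgehog effector gene Gli3 and the homeobox gene Irx3. Gli3 ranked 797 and 141 in WDR5WT and 13427 in S91K-Y191F replicate 2, and Irx3 ranked 2774 and 4348 in WDR5WT and 13942 in S91K-Y191F replicate 2. S91K-Y191F replicate 1 had no end peak at either gene. In the full lists 13 of 26 were WDR5WT-only (50%, against 32.6%), Dll1 and Hes5 of the Notch pathway among them. Pax6, a master regulator of the eye, had the most WDR5WT-only regions of this list, with 5, followed by Gli2 with 4 and Meis1 with 3.

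Of 19 endoderm genes, 0 and 2 had an end peak at equal list length in S91K-Y191F and 6 and 6 in WDR5WT. By either other ranking the counts were 0 and 1 against 2 and 3. Of 6 in both lists of a group, 4 were WDR5WT-only (66.7%, against 23.4% of all genes), and by either other ranking 2 of 2 were. The 4 are the basement membrane genes Col4a1, Col4a2 and Lama1 and the pioneer factor gene Foxa2. Col4a1 and Col4a2 share 1 peak between them, so they count as a single observation. Foxa2 also had 6 WDR5WT-only regions, and ranked 3644 and 1475 in WDR5WT against 10271 in S91K-Y191F replicate 2. Trophectoderm factors Ascl2 and Ets2 and the mesenchymal genes Cdh2 and Fbn1 were WDR5WT-only at equal list length as well, 2 of 2 and 2 of 4 genes of their lists against 23.4% of all genes, and Ascl2 had no peak in either S91K-Y191F list. By either other ranking no trophectoderm gene was WDR5WT-only, and 2 of 3 mesenchymal genes were. For primitive streak and mesoderm no gene passed at equal list length. In the full lists 6 of 8 (75%, against 32.6% of all genes) were WDR5WT-only, Eomes, Foxc1 and Foxc2 among them, and so were 3 of 4 Hox genes (75%; Hoxc6, Hoxd1 and Hoxd9).

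Genes of naive pluripotency differed both ways. Klf4 was among the strongest 5174 in WDR5WT, at 4850 and 2623, and had no peak in either S91K-Y191F list. It had one in parental replicate 1 and in all 4 p53 knockout lists. Nr0b1 and Tet2 were WDR5WT-only at equal list length as well, and Stat3, the effector of LIF, and Tbx3 were S91K-Y191F-only. These are 37.5% and 25% of 8 genes, against 23.4% and 8.63% of all genes. By either other ranking 1 gene was WDR5WT-only and 2 were S91K-Y191F-only. In the full lists Fgf4, Gbx2, Klf4 and Socs3 were WDR5WT-only, 4 of 13 genes (30.8%, against 32.6% of all genes). Of the core factors, Pou5f1, Lin28a and Sall4 were WDR5WT-only in the full lists, Pou5f1 at ranks 29077 and 14640. They are 3 of 17 genes (17.65%, against 32.6% of all genes). In the equal lists only L1td1 was, 1 of 5 genes (20%, against 23.4% of all genes). By either other ranking no core factor was WDR5WT-only, while 2 were S91K-Y191F-only. Of the 8 ESC marker genes, S91K-Y191F replicate 1 had an end peak for Zfp42 only, replicate 2 had 5 and the WDR5WT lists 6 and 7. Nanog and Sox2 had no end peak in S91K-Y191F replicate 1 and one in the other 3 lists.

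Genes that mark other cell types were counted in the full lists, where 13.1% and 33.8% of all genes had an end peak in S91K-Y191F and 49.5% and 54.9% in WDR5WT. For primitive endoderm 0 and 2 of 5 markers had one in S91K-Y191F and 3 and 3 in WDR5WT, for trophectoderm 0 and 1 of 4 against 3 and 3, for fibroblasts 0 and 0 of 5 against 3 and 3, and for neural cells 0 and 1 of 4 against 4 and 4. Open promoters of unexpressed developmental genes are usual in ESCs, and what part other cells had in these values was not tested.

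Genes of WDR5's own complexes were WDR5WT-only less often than all genes in the full lists. This was not particular to them. Of translation factor genes 4 of 37 (10.8%) and of ubiquitously expressed genes 3 of 15 (20%) were WDR5WT-only. Of 16 COMPASS and MLL subunit genes in both lists of a group, Hcfc2 and Kmt2d were WDR5WT-only in the full lists (12.5%, against 32.6% of all genes), and none were S91K-Y191F-only. With lists of equal length Kmt2c was S91K-Y191F-only, 1 of 6 genes (16.7%, against 8.63% of all genes). None were WDR5WT-only and none were in all 4 lists. Wdr5 itself had no end peak except in WDR5WT replicate 2, at rank 21177, and Trp53 had one in replicate 2 of each group. These peaks check neither the knockout nor the rescue, because the labels do not say where Wdr5 and Trp53 were cut. Of 29 p53 target genes 10 were WDR5WT-only in the full lists (34.5%, near the 32.6% of all genes). At equal list length none of 9 were WDR5WT-only, against 23.4% of all genes. Ddb2 was S91K-Y191F-only there (11.1%, against 8.63% of all genes). Both groups lack p53. Among genes of other WDR5 partner complexes 5 of 24 (20.8%, against 32.6% of all genes) were WDR5WT-only in the full lists and none were S91K-Y191F-only. At equal list length Msl3 was WDR5WT-only and Ino80 S91K-Y191F-only, each 1 of 9 genes (11.1%, against 23.4% and 8.63% of all genes). The 5 genes with the most WDR5WT-only regions were Celf4, Chd9, Mef2c and Rapgef5 with 9 each and Bbx with 8, all outside clustered windows.

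Short motifs were searched on both strands of the 300 base windows of RefSeq (250 before to 50 after a start), and any match is a description of letters, not a site. The classes here are of promoters by peaks that overlap the window itself, not of genes by end peaks. At equal list length 1071 promoters were WDR5WT-only, 315 were S91K-Y191F-only and 1938 were in all 4 lists. CCAAT was in 33.0%, 50.8% and 50.9% of these classes and 37.4% of all promoters. CCGGAA, the core letters of ETS factors, was in 19.3%, 29.8% and 32.6% of these classes and 14.9% of all. ATGGCGG, the core of YY1, was in 3.92%, 14.0%, 8.36% and 4.05%, and CACGTG, the E-box bound by MYC, in 10.4%, 15.2%, 9.34% and 7.15%. For the 416 promoters with a peak high in both WDR5WT lists and none in either full S91K-Y191F list, CCAAT was in 29.1% and CCGGAA in 11.1%. The median number of CpG pairs was 21, 23 and 25 in the 3 classes and 7 over all promoters. Over the full lists CCAAT was in 33.0%, 44.9% and 49.9% of the 3 classes and CCGGAA in 22.2%, 14.1% and 32.6%, with 78 promoters in the S91K-Y191F-only class. The order of the WDR5WT-only and S91K-Y191F-only classes for CCGGAA thus flips with list length.

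The 3555 shared regions were ranked against each other within each list, which makes the ranks comparable. Both S91K-Y191F ranks were above both WDR5WT ranks in 1041 regions, and below in 1112. Near gene ends WDR5WT was the higher more often, in 827 of 2308 regions against 537, and away from them S91K-Y191F was, in 504 of 1247 against 285. At ribosomal protein genes both S91K-Y191F ranks were higher in 9 of 18 regions and both WDR5WT ranks in 4, with a median difference of 14.4 percentile points. Among the widest gaps toward WDR5WT were Crim1, Inpp4b, Xkr4, Rnf150 and Gabra2. Xkr4, on chr1:3670465-3672680, stood at percentiles 18.5 and 19.2 in S91K-Y191F and 97.0 and 99.3 in WDR5WT, and Gabra2, a GABA receptor subunit gene, at 10.9 and 4.94 against 87.3 and 83.0. Ranked by −log10 p, the gap of Crim1 shrank from -80.5 to -10.5 percentile points, while that of Gabra2 stayed at -74.9. The signal adds over the width of a peak, and wide regions (2000 bp or more) had a median difference of -5.29 percentile points against 6.98 for those of 500 to 1000 bp. By −log10 p these medians were -0.27 and 3.64. Whether peak width accounts for the rank differences was not tested.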

How the data were processed

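ATAC-seq peak lists of 4 ESC libraries were compared, and 8 further ESC lists served as lookups; the 4 embryoid body lists were not used. Per the submitters' processing notes, build mm10 was used with DESeq2, MACS2 2.1.2, Genrich 0.6, SAMtools and Bowtie2 2.3.5, with no role given, and the caller of the ESC lists is not given in the sources used here. Each deposited list gives per peak a score (1000 times signal over width, capped at 1000), a signal that is never under 200 and grows with width, and a −log10 p value. All 3 are the authors' values, used only to rank or filter peaks within a list.

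Chromosomes 1 to 19, X and Y were used, and peaks were merged by 1 bp overlap. Equal list length took the 5174 strongest peaks of each list by signal. Gene ends are those of 21887 protein-coding RefSeq genes of GRCm38.p6, within 1000 bp, and regions were assigned to the gene with the nearest end within 100 kb. Of 472 entries in 16 gene lists 471 matched. Tests were two-sided exact permutation tests over libraries (Python 3.11.15, numpy 2.4.6, pandas 2.3.3). The merging was tested on simulated data. The depth is unknown, so no counting interval is given.

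The members and lists were chosen with earlier results of these data known. Genes were named by a rule: Wdr5 and Trp53; per list and direction up to 3 genes with the most group-specific regions and up to 3 with an end peak in one group only; per direction the 5 genes richest in such regions, the 10 strongest such regions outside clustered windows at equal list length, and the 10 shared regions with the widest rank gap. Names beyond it, the histone list, the regions absent from full lists and the rankings by −log10 p or per base at equal length were chosen after their values were seen. Same-numbered replicates did not deviate together over the shared regions (correlation -0.0792). This single value cannot show whether same-numbered libraries shared a batch or culture. The main tests left the libraries unpaired, and a replicate block is given as an alternative. Alternatives are given in the closing section. Some genes that the naming rule covers are not reported here.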

Additional observations from a re-analysis of the deposited data

How the results depend on the processing

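Depth is unknown, replicate number 2 per group, and the longer S91K-Y191F list holds 16257 peaks, so counts of WDR5WT-only regions are limited by list length. At equal list length the WDR5WT-only count fell from 13557 to 1318, the shared count from 3555 to 2093, and the genes with an end peak in WDR5WT only from 3474 to 926, while those in S91K-Y191F only went from 80 to 341; a shorter list shows fewer regions by construction. The difference in the share of peaks near a gene end reversed, from 9.82 to -16.85 percentage points. With the upper 50% of each list by p, the counts were 6702 WDR5WT-only, 496 S91K-Y191F-only and 1668 shared regions, and 48 genes for S91K-Y191F only, and the gene end difference was 4.03. Without clustered windows 598 S91K-Y191F-only regions were counted, and 314 of those high in S91K-Y191F and absent from full WDR5WT lists.

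Leaving out 1 library moved WDR5WT-only regions between 13603 and 21917, S91K-Y191F-only regions between 989 and 3099, shared regions between 3582 and 11894, and genes between 3502 and 7798 and between 80 and 176. With 1 library left out at equal list length, an alternative chosen after seeing the data, the ranges were 1881 to 4323 and 1148 to 5133, and for regions absent from the full lists of the other group 359 to 1999 and 497 to 1421. The log10 peak difference ranged from -0.78 to -0.28 and the gene end difference from 6.67 to 12.97. With a replicate block, the peak difference was -0.53 and the gene end difference 9.82 (exact sign-flip p = 0.5, the smallest possible), and the region counts, 13557 and 966, do not change by construction. The other alternatives (50% overlap, summit windows, a 200 bp merge gap, autosomes, chromosome 8 left out, 500 and 2500 bp gene end windows, ranking by −log10 p) left these counts within 1.5 times.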
